A study of Rattus norvegicus with 2 samples.

Results

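The oligodendrocyte and myelin genes were a list of 34 genes chosen for their known place in the lineage, from the precursor cell to the myelinating cell, and were compared between hypothalamic RNA of male and of female rats. Probes were given rat symbols through their RefSeq accessions, and each gene was read from its probe with the highest mean signal. Of the 34 genes, 33 had a matched probe, and all 33 were well above background on both arrays, out of 24134 genes and unnamed transcripts of which this was true among 39506 on the array. Sirt2, a deacetylase gene, had no matched accession and was not analysed here.

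The rats were of the strain SHR (spontaneously hypertensive rat), inbred for high blood pressure, and were 9 weeks old in both sexes; no other strain and no treatment entered the comparison. RNA of the dissected hypothalamic block was pooled from 5 male rats for 1 array and from 5 female rats for the other, with 100 ng from each rat. There was thus 1 pool per sex and no replicate. No test between the sexes was possible, the spread between animals was lost in the pooling, and each difference describes these 2 pools. Both arrays were on 1 slide. The 75th percentile of spot signal, to which each array was scaled, was 2203 units in the male pool and 2254 units in the female pool, over a median local background of 33 units in both. The tissue label was checked on hypothalamic neuron genes, of which 16 of 17 were well above background on both arrays, among them Avp, Oxt, Pmch and Hcrt. All 6 matched genes of a thalamus list were well above background too, so the check does not show that the block held hypothalamus only.

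Oligodendrocytes wrap axons of the central nervous system in myelin, a stack of membrane that is rich in galactolipids and held together by a small set of proteins. They arise from dividing precursors marked by Pdgfra and Cspg4, pass through a committed, newly formed stage marked by Gpr17, Bcas1 and Enpp6, and then switch on the myelin genes under the control of Sox10 and Myrf. In the hypothalamus, myelinated fibres run in tracts such as the fornix and the nearby optic chiasm and optic tract, and precursors lie throughout the grey matter. In RNA from whole tissue, fewer cells of a type and less RNA per cell cannot be told apart.

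The mature myelin genes were slightly higher in the male pool as a group. Differences are male minus female log2 signal, so that a positive value is higher in the male pool. The 25 measured mature genes had a median difference of 0.17, which is 1.12-fold, with 24 higher and 1 lower. The 5 precursor and committed genes had a median of 0.061, with 4 higher and 1 lower. The 3 transcription factors of the whole lineage, Sox10, Olig1 and Olig2, had a median of 0.055, all 3 higher, although Sox10 was at -0.0039 with normexp background correction. The difference between the mature and the precursor groups was not tested.

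Over all 33 genes the median was 0.13, against -0.016 over all 24134 genes and transcripts, and 31 were higher, against 45% of all. All 33 lay among the 15876 brighter genes, which had a mean log2 signal above -4 relative to the 75th percentile. Of the brighter genes 41.7% were higher in the male pool, and their middle 90% lay between -0.20 and 0.19. The count of 31 was 30 with median centring, where 34.3% of all genes were higher, 29 with quantile normalization, and 26 of 29 genes without spots in patches. At a size limit of 1.1-fold, 15 of 33 (45.5%) were higher in the male pool, against 8.43% of the brighter genes and 15.3% of all. None was 1.1-fold lower, against 12.3% of the brighter genes. None of the 33 was 2-fold apart in either direction, against 0.75% of the brighter genes and 1.77% of all. Gal3st1 at 0.138 was the last inside the 1.1-fold limit, and Car2 at 0.135 the first outside it.

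**Figure D1:**
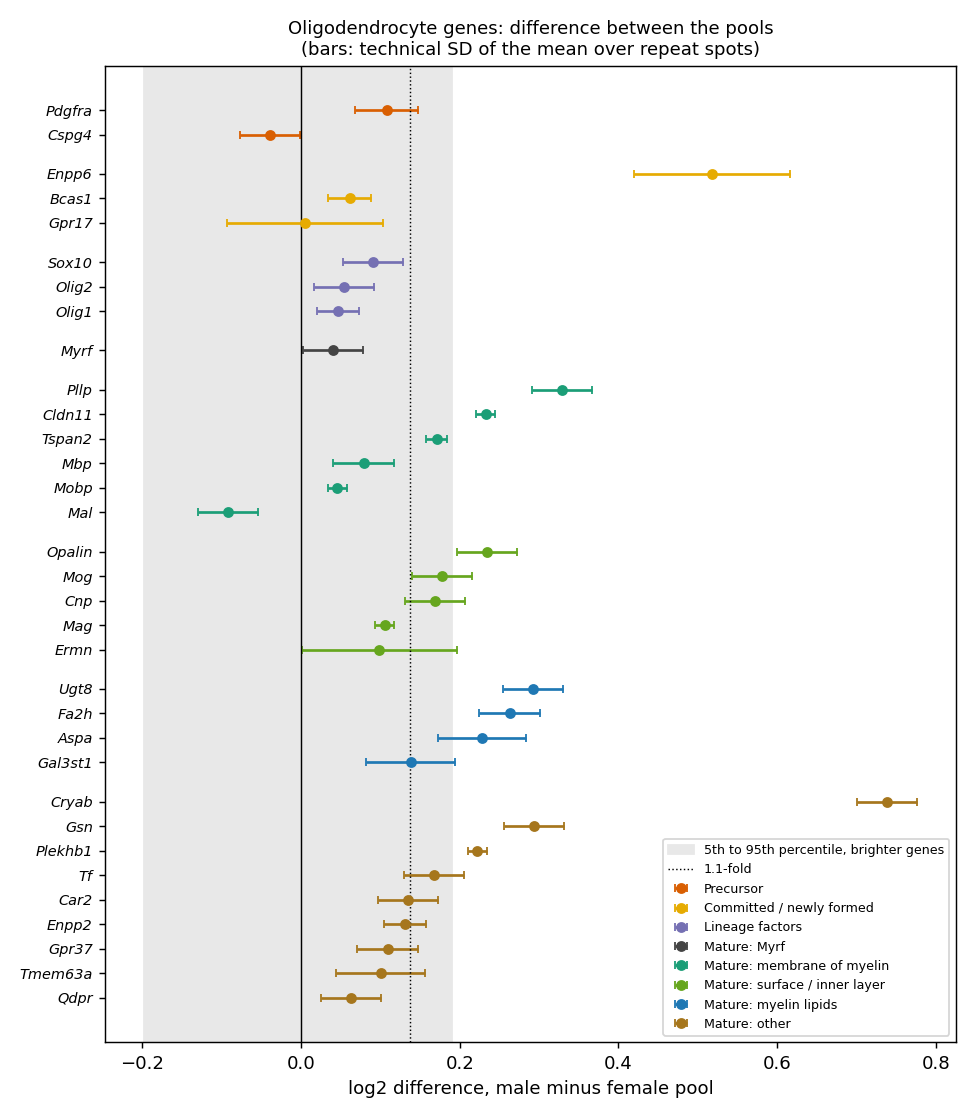
Male minus female log2 difference of each of the 33 measured genes, grouped by role; bars are the technical SD of the mean over a probe's repeat spots and the grey band spans the 5th to the 95th percentile of the brighter genes, -0.20 to 0.19. All points but Cspg4 and Mal lie above 0 (with normexp Cspg4 was also above 0 and Sox10 at -0.0039, and Gpr17 was below 0 with median centring and quantile normalization), and Cryab and Enpp6 stand furthest to the right.

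The size of the technical error was taken from probes printed on at least 8 spots. It was the SD, over a probe's repeat spots, of the difference between spots at the same place within each array. It was 0.038 above the 75th percentile, 0.056 at log2 signals of -2 to 0 and 0.098 at -4 to -2. It covers spots and scanning only, and neither animals, dissection nor labelling. Of the 33 differences, 25 were larger than 2 technical SDs of their probe's mean, 24 of them higher and 1 lower in the male pool, against 28.8% of the brighter genes in either direction and 11.7% higher. Among genes with a signal above the 75th percentile, where the technical SD is smallest, 21 of 26 of the oligodendrocyte genes and 41.5% of all genes exceeded that limit. Position on the slide was a further source of error. In some patches neighbouring spots of unrelated genes differed 2-fold in the same direction, and 12.9% of measured spots lay in one, among them 12 of the 80 spots of these genes. The probes used for Opalin, Gsn, Sox10, Enpp6, Gal3st1 and Mbp had all their spots in patches. Signal itself also moved the background a little. The median of all genes was -0.028 at log2 signals of -2 to 0, -0.027 at 0 to 1 and -0.019 at 1 to 2. It turned to 0.011 at 3 to 4 and 0.033 above 4. Set against genes of their own signal range, 31 of the 33 lay above the median and 16 above the 95th percentile, which 5% of all genes exceed by construction.

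**Figure D2:**
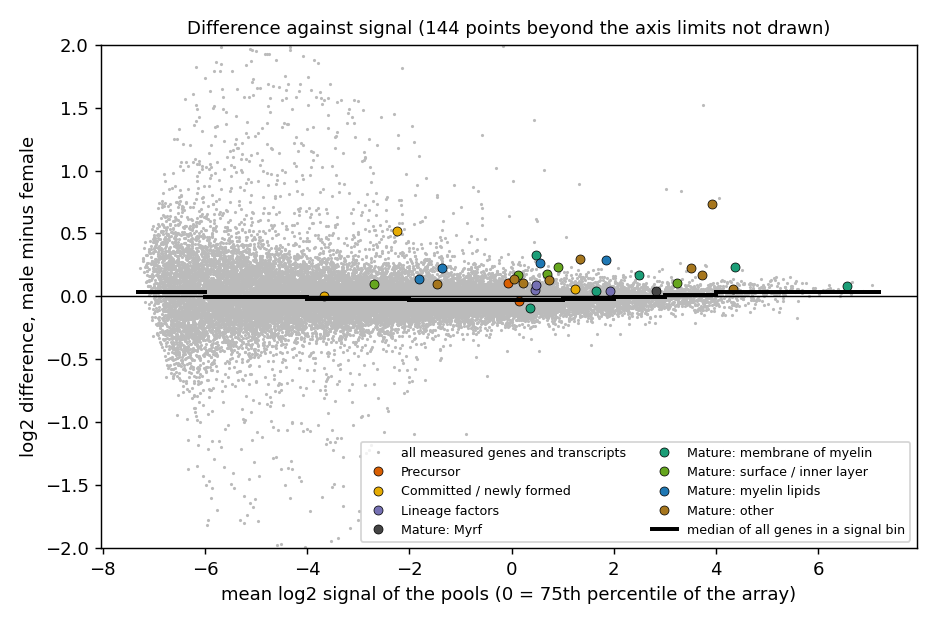
Male minus female log2 difference of every gene or transcript measured on both arrays (grey) against its mean log2 signal, with 0 on the x axis at the 75th percentile of the array; coloured points are the oligodendrocyte genes by role and black bars the median of all genes in each signal range. The grey cloud narrows with signal, and most coloured points lie above the black bars, which run from -0.028 to 0.037.

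Among the genes for proteins of the myelin membrane, Pllp, Cldn11 and Tspan2 were clearly above the technical error, and Mal was lower. Pllp, which encodes plasmolipin, was read on 1 spot. Its signal was 1.55 times the 75th percentile in the male pool and 1.24 times in the female pool. This is a difference of 0.33 (1.26-fold), which exceeded those of 98.1% of brighter genes. Cldn11 encodes the claudin that seals the myelin layers with tight junctions, and was read on 10 spots. It was at 22.6 times the 75th percentile in the male pool and 19.2 times in the female pool, a difference of 0.23 ± 0.050 (SD over spots, n = 10). All 10 spots were higher in the male pool, from 0.13 to 0.28. Its other probes were at 0.23 (10 spots) and 0.19 (1 spot). Tspan2, a tetraspanin gene of myelin membranes, was at 5.95 and 5.28 times the 75th percentile in the pools of males and females. The difference was 0.17 ± 0.046 (SD over spots, n = 8), with all 8 spots higher in the male pool.

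The basic protein genes were closer between the pools. Mbp encodes the myelin basic protein that zips the inner membrane faces together. Its brighter probe was at 97.4 times the 75th percentile in the male pool and 92.2 times in the female pool, a difference of 0.079. The dimmer Mbp probe, designed on another transcript record of the gene, was at 0.19 and 0.21 times the 75th percentile and went the other way, at -0.16, so that the 2 probes disagreed in sign. Mobp, another basic protein gene of oligodendrocytes, was at 3.19 and 3.09 times the 75th percentile in the pools of males and females, with a difference of 0.046 ± 0.043 (SD over spots, n = 10). In all, 8 of its 10 spots were higher in the male pool. Its single-spot probes were at 0.11 and 0.16. Mal, a raft protein gene of compact myelin, was at 1.25 times the 75th percentile in the male pool and 1.33 times in the female pool. Its difference of -0.092, on 1 spot, was the lowest of the 33, and 23.4% of brighter genes lay lower. It was negative under every processing choice tried, but several of these reused the same value of its single probe.

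**Figure D3:**
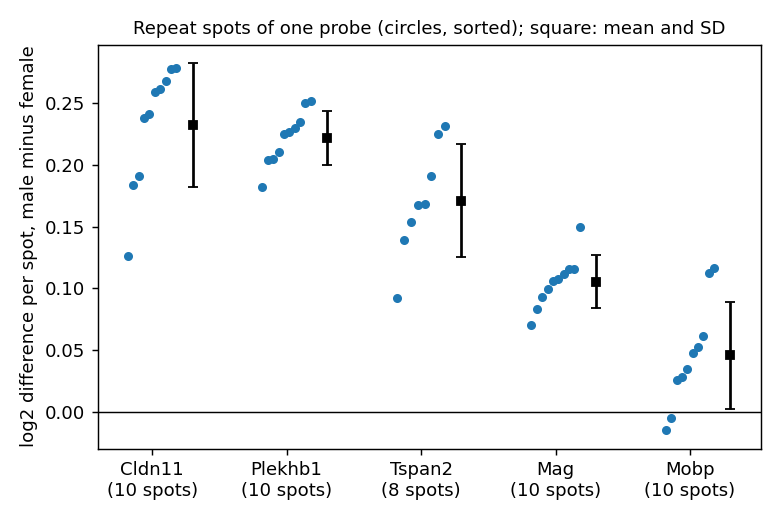
Male minus female log2 difference at each repeat spot (circles, sorted within a gene) of the 5 genes read from 8 to 10 spots, with the mean and SD over spots (squares and bars). Every spot of Cldn11, Plekhb1, Tspan2 and Mag lies above 0, and 8 of 10 for Mobp; spots are technical repeats of 1 pool per sex.

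The genes for surface and inner-layer proteins were all higher in the male pool, and the median of the 5 genes was 0.17. Opalin, which encodes a glycoprotein of mature oligodendrocytes, was at 2.03 and 1.73 times the 75th percentile in the pools of males and females, a difference of 0.23 (1.18-fold). Its 1 spot lay in a patch, and the neighbours of that spot had a median difference of -0.15. Mog, which encodes the glycoprotein on the outermost myelin surface, was at 1.72 and 1.52 times, a difference of 0.18, and its other probe was at 0.17. Cnp, which encodes the phosphodiesterase of cytoplasmic channels in myelin, was at 1.15 and 1.03 times, a difference of 0.17. Mag encodes the adhesion protein that faces the axon, and was at 9.84 and 9.15 times the 75th percentile. Its difference was small but the same at every spot in sign, at 0.11 ± 0.022 (SD over spots, n = 10), with 0.094 on the other probe. Ermn, which encodes the cytoskeletal protein ermin, was low, at 0.16 and 0.15 times the 75th percentile, and its difference of 0.099 was about its technical SD of 0.098.

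The genes for enzymes of myelin lipids had the highest median of the role groups, 0.25. All 4 differed by 1.1-fold or more towards the male pool (3 of 4 with normexp, median centring and quantile normalization). Each of the 4 values came from 1 spot, and that of Gal3st1 lay in a patch. Ugt8 makes galactosylceramide, the main glycolipid of myelin. Its signal was 3.99 times the 75th percentile in the male pool and 3.26 times in the female pool, a difference of 0.29 (1.22-fold). Fa2h hydroxylates the fatty acids of these lipids, and was at 1.61 and 1.34 times, a difference of 0.26 (1.20-fold). Gal3st1 adds sulfate to make sulfatide, and was at 0.30 and 0.27 times, a difference of 0.14, with 0.21 on its other probe. Aspa, which encodes the enzyme that frees acetate from N-acetylaspartate, was at 0.42 and 0.36 times, a difference of 0.23, with 0.29 on its dimmer probe. With median centring Gal3st1 was at 0.10.

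Cryab differed the most of the 33 genes. It encodes alpha-B crystallin, a small heat shock protein that is abundant in oligodendrocytes and also made by astrocytes. Its signal was 19.6 times the 75th percentile in the male pool and 11.7 times in the female pool, a difference of 0.74 (1.67-fold), which exceeded those of 99.3% of brighter genes. The value rests on 1 spot, whose neighbours on the slide had a median difference of -0.017. Without Cryab the mature genes had a median of 0.15.

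The other genes of mature cells were all higher in the male pool by less. Gsn, which encodes the actin-severing protein gelsolin, was at 2.81 and 2.29 times the 75th percentile, a difference of 0.29. Plekhb1, a pleckstrin homology domain gene, was at 12.3 and 10.6 times, a difference of 0.22 ± 0.022 (SD over spots, n = 10), with all 10 spots higher in the male pool. Tf, which encodes the iron carrier transferrin, was at 14.1 and 12.6 times, a difference of 0.17. Car2 and Enpp2, which encode carbonic anhydrase II and autotaxin, were at 0.14 and 0.13, and both are also expressed in the choroid plexus. Gpr37, an orphan receptor gene, was at 0.11. Tmem63a, an ion channel gene, was at 0.10 with a technical SD of 0.056. Qdpr, which encodes an enzyme that recycles tetrahydrobiopterin, was at 20.6 and 19.7 times the 75th percentile, a difference of 0.063.

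The transcription factor genes were nearly level between the pools. Myrf, the factor that turns on and maintains the myelin genes, was at 7.17 times the 75th percentile in the male pool and 6.97 times in the female pool, a difference of 0.040, about its technical SD of 0.038. Olig1 was at 3.87 and 3.74 times, a difference of 0.047, and Olig2 at 1.40 and 1.35 times, a difference of 0.055; both factors mark the lineage from the precursor on. Sox10, which acts at each stage of the lineage, was at 1.43 and 1.34 times, a difference of 0.091 that was -0.0039 with normexp. Its single spot lay among neighbours with a median difference of 0.20.

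Of the precursor and committed genes, Cspg4 and Gpr17 were near level. Pdgfra and Bcas1 were slightly higher in the male pool, by more than 2 technical SDs of the probe's mean, and Enpp6 stood apart. Pdgfra, the receptor for the growth factor that keeps precursors dividing, was at 0.99 times the 75th percentile in the male pool and 0.92 times in the female pool, a difference of 0.11 with both of its spots higher in the male pool. Cspg4, which encodes the proteoglycan NG2, was at 1.09 and 1.12 times, a difference of -0.039 that was 0.032 with normexp. Gpr17, a receptor gene that marks committed precursors, was at 0.0792 and 0.0789 times, a difference of 0.0054 against a technical SD of 0.098; with median centring it was below 0. Bcas1, a marker of newly formed oligodendrocytes, was at 2.42 and 2.32 times, a difference of 0.061. Enpp6, a choline phosphodiesterase gene of the newly formed cell, was at 0.25 and 0.18 times the 75th percentile, a difference of 0.52 (1.43-fold), on 1 spot. That spot lay in a patch of the slide where spots of other genes also differed in the same direction, with a median difference of 1.56 over its 18 nearest measured neighbours. Without spots in patches the 4 remaining genes of the group had a median of 0.033. Pdgfra is also expressed by fibroblasts and Cspg4 by mural cells of vessels, whose own genes are given below.

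Promoter windows were examined for the letters bound by Myrf, because it is the factor that acts on the myelin genes. RefSeq windows of assembly GRCr8, from 250 bases before to 50 bases after the start, were at hand for 25 of the 34 genes, in 26 windows, with 2 for Mbp. No window was at hand for Cryab, Mog, Myrf, Sox10, Olig1, Bcas1, Ermn, Enpp2 and Car2, so these genes were not searched. The letters CTGGCAC or CTGGTAC, searched on both strands, were in the windows of Cldn11, Cnp, Mag, Opalin, Mal, Olig2 and Enpp6. These were 7 of 26 windows (26.9%), against 6.78% of all 33465 windows. The SOX letters ACAAAG or ACAATG were in 30.8% of the 26 and 29.1% of all windows. The letters CAGCTG were in 23.1% and 15.1%, and the heat shock letters GAANNTTC or TTCNNGAA in 3.85% and 15.8%. In Enpp6 the Myrf letters overlapped another of these motifs, and in the other 6 genes they did not. A match describes the letters only, and is not a site that was shown to be bound. The 7 genes with the letters had differences of -0.092 to 0.52 with a median of 0.17, and the other 17 measured genes with a window had differences of -0.039 to 0.33 with a median of 0.14.

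The windows of the 5 mature genes with a match are shown because they hold surface, junction and raft proteins with differences of both signs, and that of Pdgfra as a precursor gene without a match. Each runs 5′ to 3′ on the gene's strand, with the matched letters or their reverse complement in capitals. They lie at chr2:114149490-114149789 (minus strand) for Cldn11, chr10:86011254-86011553 (plus strand) for Cnp, chr1:95290995-95291294 (minus strand) for Mag, chr1:249858141-249858440 (minus strand) for Opalin, chr3:135341374-135341673 (minus strand) for Mal and chr14:33408467-33408766 (minus strand) for Pdgfra, all in GRCr8. Relative to the start, the match begins at base -120 in Cldn11, -124 in Cnp, -94 in Mag, -17 in Opalin and -126 in Mal.
Cldn11: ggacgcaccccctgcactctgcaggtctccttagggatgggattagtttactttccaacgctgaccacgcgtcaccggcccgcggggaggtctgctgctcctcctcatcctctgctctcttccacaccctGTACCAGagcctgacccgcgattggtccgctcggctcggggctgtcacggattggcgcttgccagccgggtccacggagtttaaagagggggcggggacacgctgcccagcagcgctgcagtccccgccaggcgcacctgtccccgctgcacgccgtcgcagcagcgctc
Cnp: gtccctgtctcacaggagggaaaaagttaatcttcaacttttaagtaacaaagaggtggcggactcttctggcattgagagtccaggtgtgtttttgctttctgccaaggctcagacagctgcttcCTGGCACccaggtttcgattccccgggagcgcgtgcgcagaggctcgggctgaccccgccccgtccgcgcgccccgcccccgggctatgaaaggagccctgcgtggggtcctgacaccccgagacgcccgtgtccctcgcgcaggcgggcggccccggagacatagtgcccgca
Mag: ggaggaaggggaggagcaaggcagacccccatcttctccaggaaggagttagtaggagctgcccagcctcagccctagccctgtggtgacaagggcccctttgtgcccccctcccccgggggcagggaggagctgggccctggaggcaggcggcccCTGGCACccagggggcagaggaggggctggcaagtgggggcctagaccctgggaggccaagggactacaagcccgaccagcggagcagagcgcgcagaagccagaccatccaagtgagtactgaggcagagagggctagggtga
Opalin: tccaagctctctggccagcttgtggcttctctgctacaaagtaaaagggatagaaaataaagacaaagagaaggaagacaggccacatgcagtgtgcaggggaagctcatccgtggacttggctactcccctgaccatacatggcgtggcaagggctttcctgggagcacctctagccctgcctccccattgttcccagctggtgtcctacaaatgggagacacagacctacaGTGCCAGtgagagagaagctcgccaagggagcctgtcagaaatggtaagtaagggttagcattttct
Mal: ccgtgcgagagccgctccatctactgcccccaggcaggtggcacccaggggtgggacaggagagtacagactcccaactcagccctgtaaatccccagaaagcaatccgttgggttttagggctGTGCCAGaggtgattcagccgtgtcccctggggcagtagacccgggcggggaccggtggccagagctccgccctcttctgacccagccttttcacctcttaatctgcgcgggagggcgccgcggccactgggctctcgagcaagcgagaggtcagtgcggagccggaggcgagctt
Pdgfra: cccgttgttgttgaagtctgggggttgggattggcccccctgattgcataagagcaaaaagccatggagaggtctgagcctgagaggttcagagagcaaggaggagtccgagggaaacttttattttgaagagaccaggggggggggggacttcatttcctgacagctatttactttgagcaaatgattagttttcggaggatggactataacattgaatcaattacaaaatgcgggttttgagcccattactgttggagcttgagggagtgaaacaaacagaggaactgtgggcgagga
Cldn11, whose match is GTACCAG, was at 0.23, and Mal, whose match is GTGCCAG, was at -0.092.

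Further genes of the lineage came from lists written together with the gene roles. The list of further mature genes had a lower median than the 25 measured mature genes, 0.12 against 0.17. It was also more mixed, with 7 of 30 below 0 against 1 of 25. The precursor, regulator and signal lists had lower medians still. Of 30 further measured genes of mature oligodendrocytes (of 35 listed) 23 had a higher signal in males and 7 a lower one, and the median was 0.12. At the 1.1-fold limit 13 were higher and 2 lower. Of all measured genes 45% were higher at any size, 15.3% were 1.1-fold higher and 16.9% were 1.1-fold lower. Dim genes passed this limit more often, with 36.2% of those at log2 signals below -6 being 1.1-fold higher. Klk6, a protease gene of mature oligodendrocytes, was at 0.44, and the dim Prr18 was at -0.57 with a technical SD of 0.20. Of 20 further precursor genes (of 28 listed) 18 differed upwards and 2 downwards, the median was 0.047, and 2 were 1.1-fold higher and 1 lower. The largest differences were those of Myt1, at 0.25, and Sox11, at -0.19, which were both dim and had technical SDs of 0.20 and 0.18. Of 19 genes of sphingolipid and fatty acid metabolism (of 22 listed) 12 differed upwards and 7 downwards, the median was 0.10, and 9 were 1.1-fold higher and 1 lower. Elovl7, a fatty acid elongase gene, had a difference of 0.32 at low signal, and Plp2, a membrane proteolipid gene, at 0.20 over 10 spots. Of 17 regulators of the lineage (of 24 listed) 10 differed upwards and 7 downwards, with a median of 0.030, and 3 were 1.1-fold higher and 4 lower. The largest differences were those of Yy1, at -0.43, and Hes5, at 0.42, both on spots in patches. Of 27 genes for signals between axons and glia (of 28 listed) 13 differed upwards and 14 downwards, with a median of -0.0040, and 2 were 1.1-fold higher and 4 lower. Bdnf, a neurotrophin gene, was at -0.41, at low signal with a technical SD of 0.18.

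For the counts that follow, the shares over all measured genes were 45% higher, 15.3% 1.1-fold higher, 16.9% 1.1-fold lower and 1.77% 2-fold apart. Genes of other cell types also differed between the pools, and their part in the differences above was not tested. Those of fibroblasts had a median of 1.25, with all 10 measured members higher and 7 of them 2-fold or more (Ogn, Slc6a13, Slc22a6, Igf2, Col1a2, Col3a1 and Col1a1), and a summed signal of 4.98 times the 75th percentile in the male pool and 2.00 times in the female pool. Red cell genes had a median of 0.85, with all 6 higher, and sums of 34.5 and 19.7 times. Astrocyte genes had a median of 0.081 (9 of 10 higher, sums of 125 and 118 times), microglia genes 0.11 (10 of 12, 11.1 and 10.3 times), endothelial genes 0.22 (6 of 9, 3.77 and 3.10 times) and mural genes 0.076 (7 of 8, 0.924 and 0.869 times). Genes of the choroid plexus and ependyma had a median of 0.25 (7 of 8 higher, 2.92 and 2.16 times). Neuron genes had a median of -0.048, with 12 of 14 below 0, and sums of 80.8 and 84.0 times. Hypothalamic neuron genes had a median of -0.076, with 11 of 16 below 0, of which 6 were 1.1-fold lower, while 5 were 1.1-fold higher, and sums of 110.2 and 113.2 times. Thalamus genes had a median of -0.026 (3 of 6 higher, 18.2 and 18.8 times). Schwann cells make the myelin of peripheral nerves. Their defining genes Pmp2 and Prx, with Ncmap and Cdh19, were not well above background on both arrays, and the 4 measured members of 10 summed to 0.97 and 0.90 times.

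**Figure D4:**
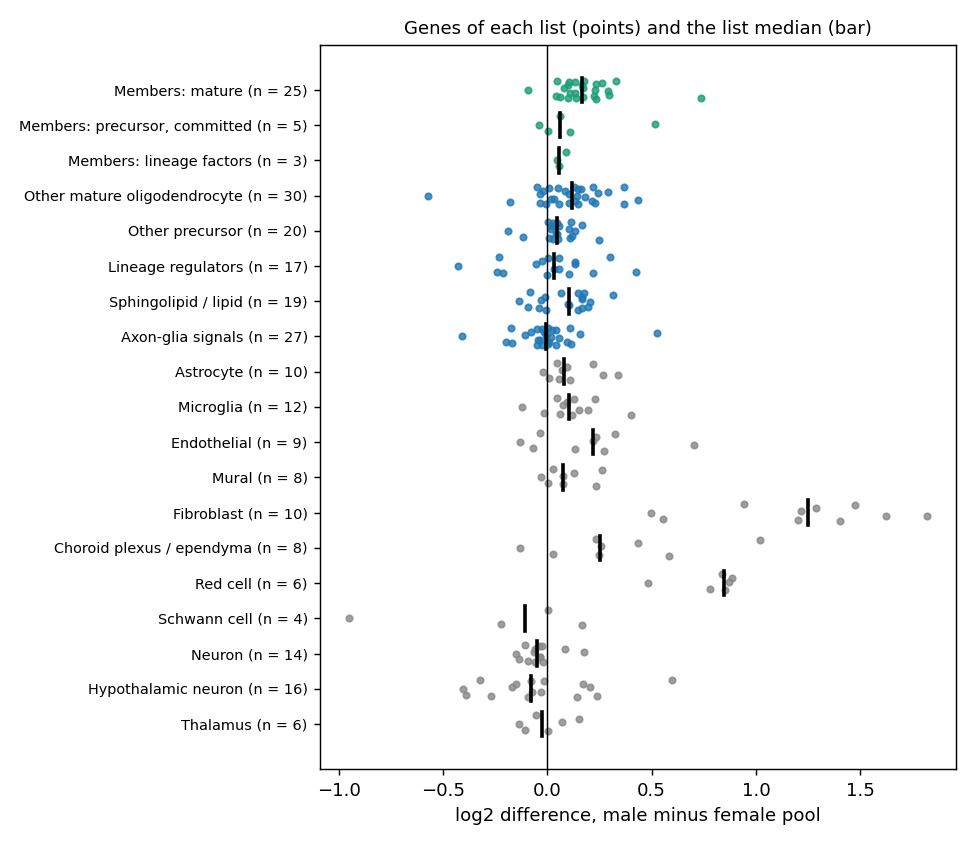
Male minus female log2 difference of each gene (points) in the 3 groups of oligodendrocyte genes (green), further lineage and myelin lists (blue) and lists of other cell types and regions (grey), with the list median (bar). The medians of 0.17 for mature genes and 0.12 for further mature genes lie above that of neurons at -0.048. They lie below those of endothelial genes at 0.22 and of choroid plexus and ependyma genes at 0.25. Fibroblast and red cell genes stand furthest to the right at 1.25 and 0.85.

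The medians of the groups stayed above 0 under the processing choices tried. The median of the mature genes lay between 0.13 and 0.17 under 12 other processing choices, and that of all 33 genes between 0.098 and 0.16. The median of the precursor and committed genes lay between 0.027 and 0.081. Some of the 12 choices could not move these medians. All 33 genes passed both signal filters, so dropping the filter or keeping brighter probes only changed nothing. The deposited value table held the same scaled signal. The choices that moved it most were median centring, at 0.027, and leaving out spots in patches or Cryab and Enpp6, at 0.033 in both cases.

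**Figure D5:**
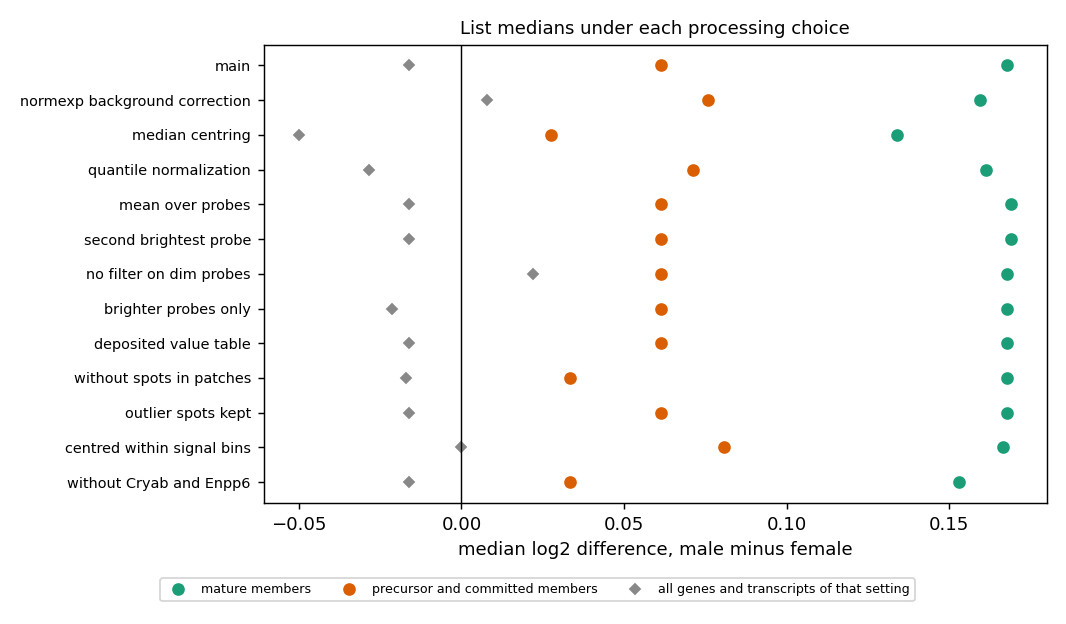
Median male minus female log2 difference of the mature genes (green), of the precursor and committed genes (orange) and of all genes and transcripts (grey diamonds) under each processing choice. The green points lie between 0.13 and 0.17, the orange points between 0.027 and 0.081, and the diamonds between -0.050 and 0.022.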

How the data were processed

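Pooled hypothalamic RNA of each sex was labelled with Cy3 and measured on 1 Agilent array. Per the file headers, the deposited array files hold the background-subtracted processed signal, an intensity that is not scaled between arrays, and median spot and local background intensities, from Feature Extraction 11.5.1.1; the submitters' processing notes name version 9.1. The deposited value table, also intensities, equalled the processed signal over the array's 75th percentile times 100 (within 1%, all 42947 rows).

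Of 58717 rat spots, the 664 that either array flagged as outliers were dropped, and none was saturated. Log2 signals were scaled to the 75th percentile over rat spots, then averaged per probe. Symbols came from a RefSeq gene table (GRCr8), which matched 21109 of 45598 probes (46.3%); the probe with the highest mean signal stood for a gene. A probe with repeat spots was well above background when over 50% of its spots were. A spot was in a patch when at least 2 of its 18 nearest measured spots of other probes differed at least 2-fold in 1 direction. Normexp (limma 3.58.1, R 4.3.3, offset 50) used median spot signals. Beyond the 34, the genes that could be named were, per list, those at least 2-fold apart, or else the 2 with the largest differences, and defining markers of a cell type; 2 such genes are not reported here. Members, lists, limits and alternatives were chosen with earlier results of these data known. The calculation was tested on simulated data. No test between the sexes was run.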

Additional observations from a re-analysis of the deposited data

How the results depend on the processing

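All 6 summaries (3 medians and 3 counts) kept their direction, and moved by less than 0.038 (medians) or 1.5 times (counts), under 12 alternatives, of which 10 were listed at the start, with earlier results of these data known, and 2 were added after these values were seen (centring within signal ranges, and leaving out Cryab and Enpp6). The count of genes at 1.1-fold or more towards the male pool was 15, and ranged from 11 with median centring to 17 with centring within signal ranges. Without spots in patches it was 12 of 29 genes, since Enpp6, Opalin, Gsn and Sox10 then had no spot left. Of the 33 genes, 29 kept 1 sign throughout and 4 did not. Those were Cspg4 and Sox10 with normexp, Gpr17 with median centring and quantile normalization, and Mbp, at -0.040 with the mean over probes and -0.16 on its dimmer probe alone; Mbp was at 0 with quantile normalization, which gives the brightest spots of each array 1 value. Of 359 values of single genes, 13 moved by more than the technical SD. The 359 include those with no filter, with brighter probes only and from the deposited value table, which could not move. Genes with 1 probe could not move under the other probe rules, nor genes without spots in patches when such spots were left out. Median centring shifted every gene by the same amount. The 13 of 359 and the 29 with 1 sign are thus no measure of how stable the values are. Signal over background did not limit these genes, which were all well above it. No paired analysis was possible because each sex had 1 pool, and no replicate could be left out.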
